A study of Mus musculus with 6 samples.

Results

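The adjacent lysozyme genes Lyz1 and Lyz2 lay among 33 of the 134964 peaks in 6 ChIP-seq peak lists from mouse bone marrow-derived macrophages (BMDMs). A peak was taken as a member when the deposited annotation, which names the gene with the nearest transcription start site (TSS), gave it to Lyz1 (20 peaks) or Lyz2 (13 peaks). Marrow cells of Wt mice aged 8 to 12 weeks were grown for 6 days with L929 supernatant, a source of MCSF. They then received either vehicle without IL-4 (control, labelled veh) or 1 h of IL-4 at 20 ng/ml. Chromatin crosslinked with DSG and formaldehyde was used for ChIP of C/EBPα, of IRF8 and of JUNB, giving 1 sample for each of the 3 factors and 2 conditions. These factors are lineage-determining factors of macrophages, and the comparison asks whether their binding shifts soon after IL-4, which acts through the transcription factor STAT6, around genes that IL-4 represses. No group had a replicate, so no spread between replicates and no test can be given, and every value below describes 1 library. Expression of the genes was not measured in these lists.

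Lysozyme is a secreted and granule enzyme that cuts the peptidoglycan of bacterial cell walls. Lyz2, or lysozyme M, is the form of macrophages and neutrophils and a classical marker of the myeloid lineage, and Lyz1, or lysozyme P, is the form of intestinal Paneth cells. C/EBPα is a basic leucine zipper factor of myeloid development. IRF8 binds DNA poorly alone and commonly pairs with PU.1 on composite sites, while JUNB is a subunit of AP-1. STAT6 binds a palindrome of TTC and GAA arms with a short spacer.

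C/EBPα was listed with 24486 peaks in control and 24612 with IL-4. The IRF8 lists were longer (37525 and 42076 peaks), and those of JUNB were far shorter (3940 and 2325). The number of reads per sample was not given in the sources used here, and the depth is therefore unknown. Which of the named library kits served which sample was not given either, so kit, depth and IL-4 cannot be told apart within a factor. Peak score is the caller's deposited value, with no stated unit, and its median ranged from 6.21 in the JUNB IL-4 list to 11.22 in the C/EBPα IL-4 list. As a check of the cell label, the macrophage genes Spi1, Csf1r, Cd14, Adgre1 and Itgam each had C/EBPα and IRF8 peaks in both conditions. Cd3e, Hbb-b1 and Col1a1, genes of T cells, red cells and fibroblasts, had no peak in any list.

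The genes sit in tandem on the minus strand of chromosome 10. In mm10 (GRCm38), RefSeq places Lyz2 at chr10:117277541-117282272 and Lyz1 at chr10:117287795-117292868, with 5522 bp between them and 10596 bp from start to start. Each has 4 exons. The 33 peaks fell into 12 separate regions when overlapping peaks were merged, spread over 55722 bp from chr10:117275101 to chr10:117330822. The next peak of any list lay 50037 bp away beyond the Lyz2 side and 12321 bp away beyond the Lyz1 side. Regions are named here by the distance of their middle from the start of the gene, with minus for upstream. All 33 deposited distances matched the RefSeq starts.

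**Figure D1:**
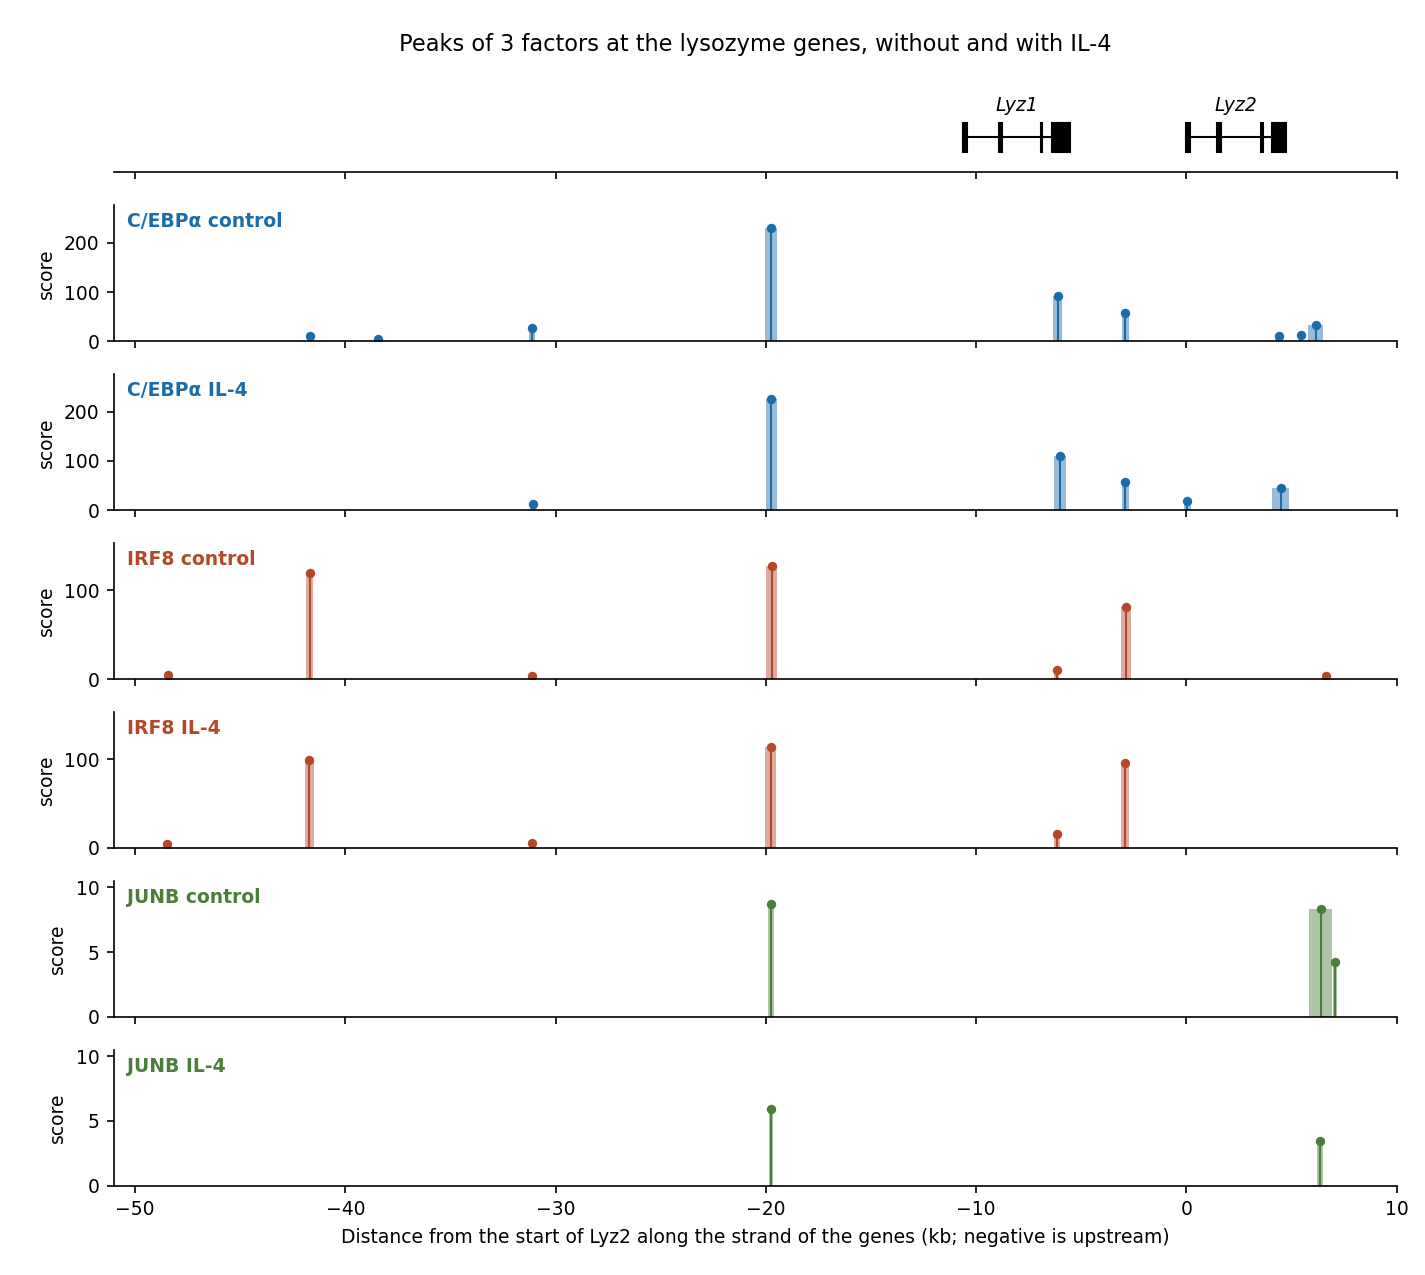
Peak score (no unit, linear axis, 1 scale per factor) against distance from the start of Lyz2 in kb, with a track for each factor and condition; bars show peak widths, points the peak middles and black boxes the exons. The highest bars of C/EBPα stand at the -9.1 kb element of Lyz1, at -19.7 kb on this axis (229.61 in control and 225.99 with IL-4), and JUNB bars reach 8.74 at most.

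The sequence of 3 elements upstream of Lyz1 is given for reference, on the plus strand of GRCm38, with matches to the searched motifs in capitals. The motifs, read on both strands, were AP-1 (TGACTCA or its reverse TGAGTCA), C/EBP (TTGC, 2 bases of any kind, AA), PU.1/ETS (GAGGAA), a PU.1-IRF composite (GGAA, 2 bases of any kind, GAAA), an IRF pair (GAAA, 2 bases of any kind, GAAA), STAT6 (TTC, 4 bases of any kind, GAA) and another STAT spacing (TTC, 3 bases of any kind, GAA). Letters of the composite and of the IRF pair can overlap letters of PU.1/ETS. Shown are the element with all 3 factors (chr10:117301856-117302155), the IRF8 element farther upstream (chr10:117323834-117324133) and the weaker element between them where C/EBPα and IRF8 scores moved in opposite directions (chr10:117313233-117313532), as 300 bp around the middle of each region.
-9.1 kb element of Lyz1: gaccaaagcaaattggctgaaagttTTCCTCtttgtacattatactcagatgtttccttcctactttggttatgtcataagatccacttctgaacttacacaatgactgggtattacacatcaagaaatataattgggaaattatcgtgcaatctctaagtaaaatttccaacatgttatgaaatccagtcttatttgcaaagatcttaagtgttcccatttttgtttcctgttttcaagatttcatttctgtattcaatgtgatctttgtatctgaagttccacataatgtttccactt
-31.1 kb element of Lyz1: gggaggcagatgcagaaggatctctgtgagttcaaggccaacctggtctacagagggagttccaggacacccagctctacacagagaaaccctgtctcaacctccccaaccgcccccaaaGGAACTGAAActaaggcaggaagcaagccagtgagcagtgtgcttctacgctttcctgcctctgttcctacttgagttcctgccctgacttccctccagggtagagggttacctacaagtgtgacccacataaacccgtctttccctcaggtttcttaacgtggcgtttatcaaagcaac
-20.5 kb element of Lyz1: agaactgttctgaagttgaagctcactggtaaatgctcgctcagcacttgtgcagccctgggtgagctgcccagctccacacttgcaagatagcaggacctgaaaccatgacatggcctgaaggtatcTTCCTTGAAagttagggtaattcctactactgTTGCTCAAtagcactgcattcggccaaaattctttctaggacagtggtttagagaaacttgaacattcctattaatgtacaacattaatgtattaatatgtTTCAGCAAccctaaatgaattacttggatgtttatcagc
The -9.1 kb stretch is poor in G and C (32.7%) and carries 1 GAGGAA on the minus strand, the -31.1 kb stretch carries 1 composite, GGAACTGAAA, and the -20.5 kb stretch carries 2 C/EBP matches and 1 STAT match of the other spacing.

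The -9.1 kb element of Lyz1 (chr10:117301724-117302286, intergenic) was the only region that held all 3 factors in both conditions. C/EBPα scored 229.61 in control (chr10:117301741-117302285, -9145 bp) and 225.99 with IL-4 (chr10:117301752-117302249, -9132 bp), and each was the peak ranked 3 by score in its list. The ratio of IL-4 over control was 0.984. Lyz1 was accordingly the gene ranked 3 by its highest C/EBPα score, of 9327 gene names with a C/EBPα peak in control and of 9319 with IL-4. IRF8 scored 127.47 in control (chr10:117301724-117302254, -9121 bp) and 113.22 with IL-4 (chr10:117301778-117302286, -9164 bp), a ratio of 0.888. These lay above 97.6% and 96.9% of their lists. JUNB scored 8.74 in control (chr10:117301884-117302143, -9145 bp) and 5.89 with IL-4 (chr10:117301946-117302107, -9158 bp), a ratio of 0.674. That ratio fell just short of the 1.5-fold limit used here, and it lay near the median over all JUNB pairs (0.685). The middles of the 6 peaks all lay between -9121 and -9164 bp. At this site none of the 3 factors moved past 1.5-fold.

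The -2.9 kb element of Lyz2, in the gap between the genes (chr10:117284902-117285396, intergenic), held C/EBPα and IRF8 but no JUNB peak. C/EBPα scored 57.45 in control (chr10:117284999-117285338) and 58.05 with IL-4 (chr10:117284988-117285348), both at -2896 bp, a ratio of 1.01. IRF8 scored 80.73 in control (chr10:117284902-117285352, -2855 bp) and 96.21 with IL-4 (chr10:117284986-117285396, -2919 bp), a ratio of 1.19. These were the highest scores of both factors at Lyz2. Lyz2 ranked 1502 of 9327 gene names by highest C/EBPα score in control and 1637 of 9319 with IL-4, well below Lyz1. By highest IRF8 score, Lyz2 ranked 1806 of 12167 in control and 1537 of 13302 with IL-4, against 813 and 1176 for Lyz1. The Lyz1 ranks of both factors rest on the -9.1 kb element. It is given to Lyz1 by the nearest TSS, and lay at -19.7 kb from the start of Lyz2.

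The -31.1 kb element of Lyz1 (chr10:117323764-117324202) lay on an MTD repeat, an LTR of the ERVL-MaLR class. IRF8 scored 119.11 in control (chr10:117323789-117324139, -31096 bp) and 98.97 with IL-4 (chr10:117323764-117324202, -31115 bp), a ratio of 0.831. They lay above 97.2% and 96.0% of their lists. C/EBPα scored 10.72 there in control (chr10:117323862-117324055, -31090 bp) and had no peak with IL-4. The C/EBPα peak lay above 48.5% of its list.

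The -20.5 kb element of Lyz1 (chr10:117313215-117313549, intergenic) was the only region where paired scores of the factors moved past 1.5-fold in opposite directions. C/EBPα scored 26.08 in control (chr10:117313252-117313549, -20532 bp) and 13.34 with IL-4 (chr10:117313215-117313480, -20479 bp), a ratio of 0.512 that lay above only 7.13% of all C/EBPα pairs. IRF8 scored 3.57 in control (chr10:117313303-117313457, -20512 bp) and 6.04 with IL-4 (chr10:117313285-117313462, -20505 bp), a ratio of 1.69. Both IRF8 scores were in the lower part of their lists, above 5.2% of the peaks in control and 29.1% with IL-4.

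Both last exons, which hold the 3′ UTR, carried C/EBPα. At the last exon of Lyz1 (chr10:117287978-117288591), C/EBPα scored 91.24 in control (chr10:117288192-117288591, 4477 bp past the TSS) and 109.07 with IL-4 (chr10:117287978-117288585, 4587 bp), a ratio of 1.2. IRF8 scored 9.8 in control (chr10:117288319-117288552, 4433 bp) and 15.54 with IL-4 (chr10:117288287-117288575, 4437 bp), a ratio of 1.59. At the last exon of Lyz2, C/EBPα scored 10.19 in control over 331 bp (chr10:117277716-117278046, 4391 bp) and 45.89 with IL-4 over 832 bp (chr10:117277368-117278199, 4489 bp). The ratio of 4.5 was the largest of the 13 lysozyme pairs and lay above 99.3% of all C/EBPα pairs. The peak rose from above 46.3% of its list to above 88.6%, and with IL-4 it covered the whole exon. No IRF8 or JUNB peak was found at the last exon of Lyz2.

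The start of Lyz2 had the only IL-4-only peak of the locus. C/EBPα scored 17.91 there with IL-4 (chr10:117282055-117282391, 49 bp past the TSS, annotated promoter-TSS) and had no peak in control. It ranked 176 of the 5404 IL-4-only C/EBPα peaks by score. No list held a peak at the start of Lyz1.

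Past the end of Lyz2, 3 regions held mainly control peaks. The +6.4 kb region (chr10:117275339-117276466), on an RLTR12D repeat and an RSINE1 repeat, held 4 peaks. C/EBPα scored 32.26 in control over 719 bp (chr10:117275748-117276466, 6165 bp past the TSS) and had no peak with IL-4. This was the highest score of all 5228 control-only C/EBPα peaks. JUNB scored 8.32 in control over 1094 bp (chr10:117275339-117276432, 6387 bp), the peak ranked 4 by width among 3940. With IL-4 it scored 3.44 over 301 bp (chr10:117275768-117276068, 6354 bp), a ratio of 0.413. IRF8 scored 3.57 in control (chr10:117275532-117275707, 6653 bp) and had no peak with IL-4. A weak JUNB peak of 4.26 in control lay next to it at +7.1 kb, on an MLTR31FA_MM repeat (chr10:117275101-117275278, 7083 bp), without an IL-4 partner. C/EBPα scored 13.43 in control just past the end of the gene (chr10:117276720-117276946, 5439 bp, annotated TTS), again with no IL-4 peak. It ranked 137 of the 5228 control-only peaks. None of the 3 factors had a higher score with IL-4 than in control in these regions.

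Weak peaks made up the rest. C/EBPα scored 3.82 in control at -27.8 kb of Lyz1 (chr10:117320617-117320800, -27840 bp) and had no peak with IL-4. IRF8 scored 4.3 in control (chr10:117330577-117330796, -37818 bp) and 3.97 with IL-4 (chr10:117330654-117330822, -37870 bp) at -37.8 kb, a ratio of 0.923.

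**Figure D2:**
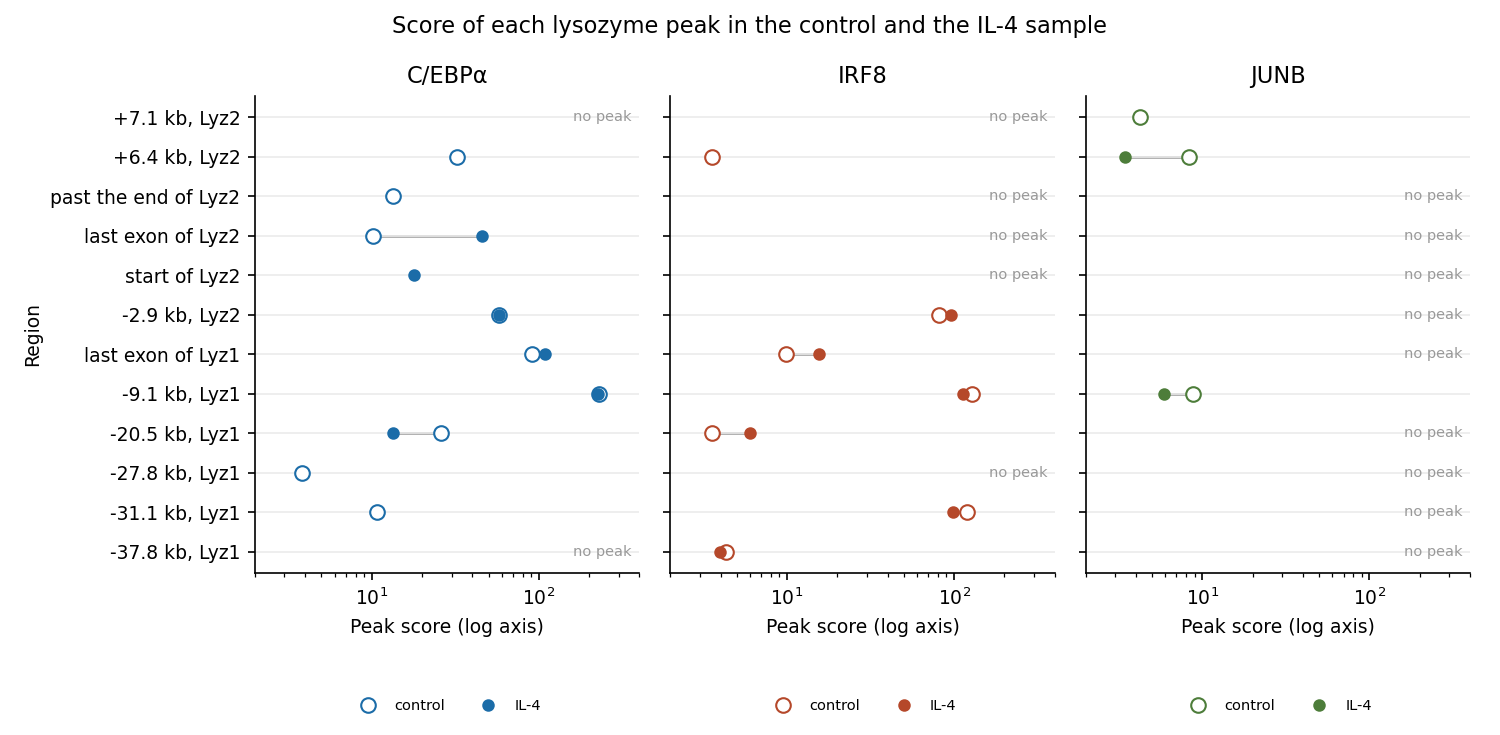
Peak score (no unit, log axis) of each lysozyme region for C/EBPα, IRF8 and JUNB, with open circles for the control sample, filled circles for the IL-4 sample and a line where both had a peak; each circle is 1 peak of 1 sample. C/EBPα points spread most at the last exon of Lyz2 (10.19 and 45.89), while those at -9.1 kb lie on each other.

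Counted over the locus, C/EBPα went from 9 peaks in control to 6 with IL-4. Of the control peaks, 4 had no IL-4 partner, against 21.4% of all C/EBPα control peaks. Of the IL-4 peaks, 1 had no control partner, against 22.0% of all. The 4 were split evenly between the genes, with 2 at each, and the IL-4-only peak was at Lyz2. Among 5 paired peaks, 1 was higher by 1.5-fold or more (17.7% of all pairs) and 1 was lower by as much (17.8%). Their median ratio was 1.01, against 0.997 over all pairs.

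IRF8 had 7 peaks in control and 6 with IL-4. Only the weak +6.4 kb peak lacked an IL-4 partner, 1 of 7 against 21.4% of all IRF8 control peaks, and 0 of 6 IL-4 peaks lacked a control partner, against 30.4%. Of 6 pairs, 2 were higher (23.6% of all) and 0 were lower (17.5%). The median ratio of 1.05 was near that of all pairs, 1.06. The higher pairs were the last exon of Lyz1 and the -20.5 kb element, with control scores of 9.8 and 3.57, and the 3 IRF8 pairs with scores above 80 stayed within 1.5-fold.

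JUNB had 3 control peaks and 2 IL-4 peaks. Of the control peaks, 1 lacked a partner, against 64.2% of all JUNB control peaks, and 0 IL-4 peaks did, against 39.2%. Of 2 pairs, 0 were higher (9.6% of all) and 1 was lower (47.9%). The median ratio was 0.528, against 0.685 over all pairs, so most JUNB scores in the genome were lower in the IL-4 list as well. With so few peaks, the shares at the lysozyme genes cannot be set apart from those of the whole lists.

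**Figure D3:**
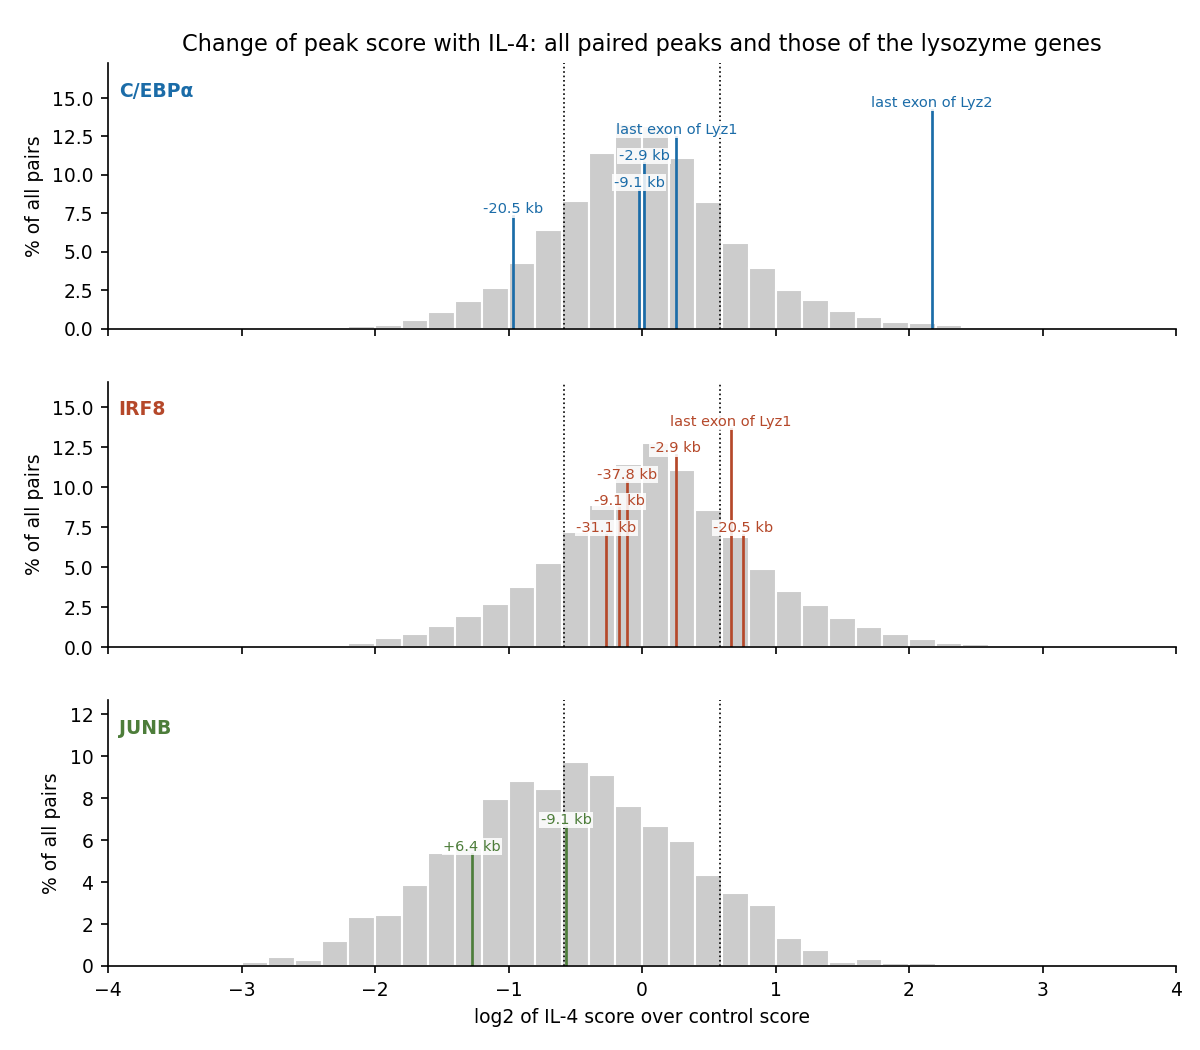
Share of all paired peaks (%, grey bars) by the log2 ratio of IL-4 score over control score for each factor, with the lysozyme pairs as coloured lines and 1.5-fold either way as dotted lines; ratios beyond 4 either way are drawn in the outermost bars. The C/EBPα pair in the last exon of Lyz2 stands far right, at a log2 ratio of 2.17, and each of the other 12 pairs lies above 7.13% to 82.6% of the pairs of its factor.

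In control, 5 of 9 C/EBPα peaks overlapped an IRF8 peak (58.1% of all C/EBPα peaks did) and 2 of 9 a JUNB peak (11.6%). Of the 7 IRF8 peaks, 5 overlapped C/EBPα (37.9% of all) and 2 overlapped JUNB (8.49%). Of the 3 JUNB peaks, 2 overlapped C/EBPα (72.3%) and 2 overlapped IRF8 (80.8%). With IL-4, 4 of 6 C/EBPα peaks overlapped IRF8 (60.6%) and 1 overlapped JUNB (6.93%). Of 6 IRF8 peaks, 4 overlapped C/EBPα (35.3%) and 1 overlapped JUNB (4.56%), and of 2 JUNB peaks, 1 overlapped C/EBPα (73.4%) and 1 overlapped IRF8 (82.6%). In control 2 of the 12 regions held all 3 factors, 4 held 2, 5 held 1 and 1 held none. With IL-4, 1 held all 3, 3 held 2, 5 held 1 and 3 held none. The +6.4 kb region went from all 3 factors to JUNB alone, and the -31.1 kb region from C/EBPα with IRF8 to IRF8 alone. At +6.4 kb the control peaks of C/EBPα and IRF8 did not overlap each other. Each overlapped the 1094 bp JUNB peak, which joined them into 1 region, and the IRF8 score was low (3.57).

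No AP-1 match was found in any of the 12 regions. In the 200 bp around the middle of each peak, 0 of 3 and 0 of 2 JUNB peaks of the locus held the AP-1 letters, against 47.8% and 43.0% of all JUNB peaks in control and IL-4. The strict C/EBP letters were in 3 of 9 C/EBPα control peaks (34.3% of all) and in 1 of 6 IL-4 peaks (33.3%). The -9.1 kb element, with the highest C/EBPα scores of the locus, held no such match over its 563 bp. It held 3 GAGGAA matches and TTCTTTGAA, a STAT match of the other spacing. With looser C/EBP letters (TT, 2 bases of any kind, G, 1 base of any kind, AA), chosen after these matches were seen, the element held 6 matches, among them TTGTGTAA at -50 bp and TTGGGAAA at -12 bp from its middle, counted along the chromosome. In the 200 bp windows the looser letters were in 4 of 9 C/EBPα control peaks of the locus, against 69.6% of all, and in 4 of 7 IRF8 control peaks, against 48.9%. With IL-4 they were in 4 of 6 C/EBPα peaks (68.7% of all) and 4 of 6 IRF8 peaks (46.7%). For JUNB they were in 3 of 3 control peaks (49.7%) and 2 of 2 IL-4 peaks (46.0%). PU.1/ETS letters were in 3 of 9 C/EBPα control peaks (39.0% of all) and 2 of 7 IRF8 control peaks (45.6%), and with IL-4 in 1 of 6 (38.1%) and 3 of 6 (43.5%). STAT6 letters were in 1 of 9 C/EBPα control peaks (6.44% of all) and 1 of 7 IRF8 control peaks (6.05%), and with IL-4 in 0 of 6 (10.2%) and 1 of 6 (8.53%). Those of the other STAT spacing were in 1 of 9 (6.87%) and 1 of 7 (7.16%) in control, and in 1 of 6 (8.15%) and 2 of 6 (7.91%) with IL-4. No JUNB peak of the locus held any of the 7 motifs in this window. The composite was in 2 of 7 IRF8 control peaks (15.0% of all) and in 2 of 6 with IL-4 (13.9%), at the elements at -2.9 kb and -31.1 kb. A match is a description of letters, not of a bound site.

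Much of this locus is present in more than 1 copy. The coding sequences of Lyz1 and Lyz2 were identical at 425 of 447 positions (95.1%), and the 250 bp before the RefSeq starts at 79.4%, with 92.0% over the last 100 bp. The promoters are printed from the RefSeq promoter table, up to the base before the outermost annotated start. They are on the minus strand of GRCm38, which is the strand of the genes. C/EBPα had a peak with IL-4 at the start of Lyz2 and none at that of Lyz1. The middle of that peak lay 49 bp past the TSS, so the printed Lyz2 stretch held only its upstream end.
Lyz2 promoter, chr10:117282322-117282522: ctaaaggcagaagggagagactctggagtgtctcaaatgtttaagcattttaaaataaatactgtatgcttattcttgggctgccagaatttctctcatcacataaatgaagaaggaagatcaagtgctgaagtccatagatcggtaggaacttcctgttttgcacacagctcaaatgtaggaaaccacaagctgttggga
Lyz1 promoter, chr10:117292869-117293118: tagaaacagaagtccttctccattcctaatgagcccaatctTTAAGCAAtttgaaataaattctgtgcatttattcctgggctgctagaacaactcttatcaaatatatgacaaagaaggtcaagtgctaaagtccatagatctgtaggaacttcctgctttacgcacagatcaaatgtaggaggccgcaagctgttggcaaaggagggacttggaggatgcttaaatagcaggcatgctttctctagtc
The capitals mark a C/EBP match in the Lyz1 promoter, letters held by 10.8% of the 32851 promoters in the table, and the Lyz2 promoter held none of the 7 motifs. The peak at the start of Lyz2 has a copy at the start of Lyz1 (chr10:117292654-117292987) that is 92.8% identical over 334 aligned bp and held no peak in any list. Farther off, it also matched at 82.0% over 272 aligned bp (chr10:117247937-117248205) and at 66.9% over 302 aligned bp (chr10:117238430-117238727), neither under a peak.

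The C/EBPα peaks in the last exons lay on copies of each other. The Lyz2 region matched the Lyz1 exon at 95.9% over 833 aligned bp. Each copy held the C/EBP matches TTGCTTAA and TTGCACAA and the STAT6 match TTCTGCTGAA, at chr10:117278009-117278018 in Lyz2 and at chr10:117288471-117288480 in Lyz1. Each region also held 2 GAGGAA matches, of which the second lay at a different place in the 2 regions. Control scores stood at 10.19 in Lyz2 and 91.24 in Lyz1, and IRF8 peaks were called only on the Lyz1 copy. Of all 36-base stretches, a length chosen here for the check, 28.2% in the Lyz2 exon region and 27.5% in the Lyz1 exon region recurred elsewhere in the locus. At the start of Lyz2 18.5% recurred, at the -2.9 kb element 2.39% and at the +6.4 kb region 1.46%. None recurred within the locus in the other 7 regions, which include those at -9.1 kb, -20.5 kb and -31.1 kb. Only the locus with 40000 bp either side was searched, so copies elsewhere in the genome were not counted. Regions on repeats, such as those at +6.4 kb and -31.1 kb, were not checked for such copies. A read that lies wholly within a recurring stretch matches both places equally. Neither the read length nor the treatment of such reads is given in the sources used here. The part of such reads in the score changes at the last exons, the start of Lyz2 and the regions on repeats was not tested.

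The -2.9 kb element had a copy 10931 bp away, past the end of Lyz2 (chr10:117273971-117274462), that was 86.7% identical over 495 aligned bp and held no peak in any list. A stretch of the bound element (chr10:117285000-117285299) and its counterpart in the unbound copy (chr10:117274069-117274365) are shown on the plus strand, since they differ in the composite match, with capitals as above.
-2.9 kb element: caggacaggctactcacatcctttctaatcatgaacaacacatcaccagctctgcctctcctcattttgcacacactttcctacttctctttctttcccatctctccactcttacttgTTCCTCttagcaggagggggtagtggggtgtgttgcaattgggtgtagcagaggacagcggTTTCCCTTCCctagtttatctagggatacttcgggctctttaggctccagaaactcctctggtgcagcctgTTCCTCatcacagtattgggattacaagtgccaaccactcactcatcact
copy without a peak: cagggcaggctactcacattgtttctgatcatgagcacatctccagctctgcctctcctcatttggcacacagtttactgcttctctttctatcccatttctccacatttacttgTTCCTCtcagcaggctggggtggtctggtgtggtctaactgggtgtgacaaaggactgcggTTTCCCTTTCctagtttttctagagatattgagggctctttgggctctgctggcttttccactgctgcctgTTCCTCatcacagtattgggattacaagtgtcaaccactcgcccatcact
The printed stretches were identical at 247 of 300 aligned positions (82.3%). Both held 2 GAGGAA matches, seen here as TTCCTC. The bound element held the composite TTTCCCTTCC on this strand, and the copy held TTTCCCTTTC at the same place, which spells the IRF pair and not the composite. The +6.4 kb region had partial copies downstream of Lyz1 as well, at 82.6% over 363 aligned bp (chr10:117285985-117286343) and 90.1% over 233 aligned bp (chr10:117286810-117287042), neither under a peak. The region past the end of Lyz2 had a copy at 80.4% over 153 aligned bp, also without a peak. Single matches elsewhere in the locus covered up to 30.5% of the -31.1 kb element, and none of them lay under a peak. The matched parts of the element all lay between chr10:117323798 and chr10:117323943, and the rest of it had no match there.

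**Figure D4:**
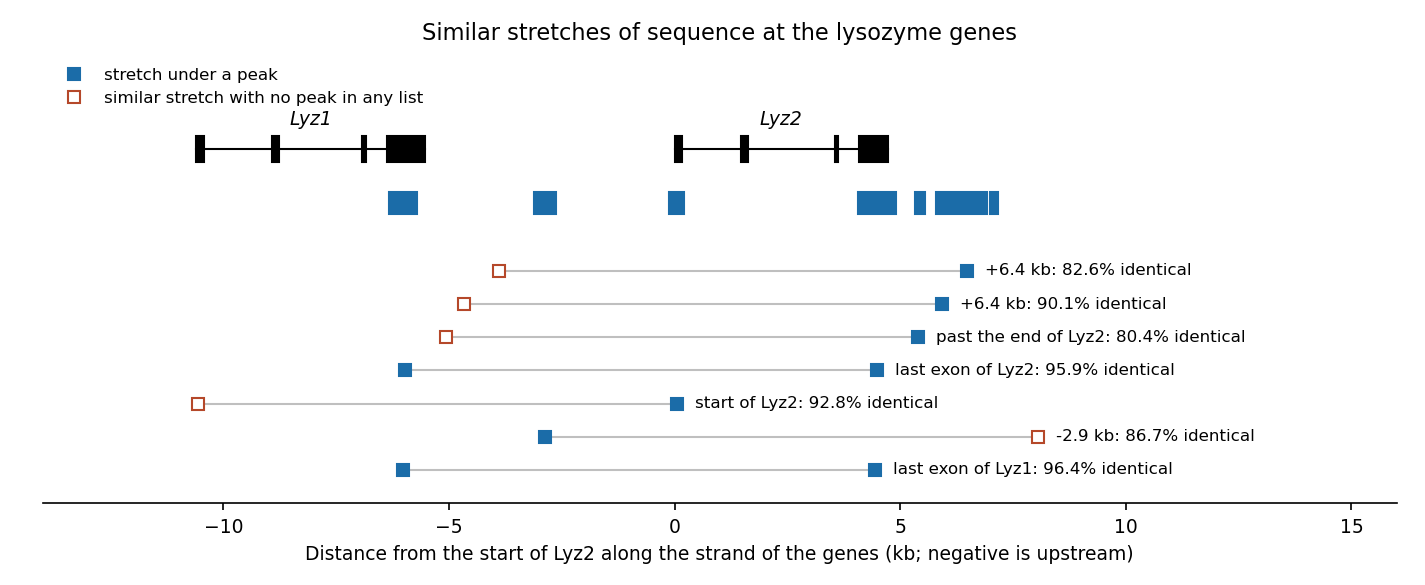
Distance from the start of Lyz2 (kb) of the lysozyme regions (blue bars) and, in the lines beneath, of each bound stretch (filled squares) and its most similar stretches near the genes (open squares where no list has a peak), with the percent of identical aligned bases; black boxes are exons. Only the last exons of Lyz1 and Lyz2 have a peak on both copies, at 95.9% and 96.4% identity depending on which region is aligned.

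By the highest score in each of the 6 lists, on a log2(score + 1) scale, the gene names most like Lyz1 among 14930 were Cyp4f18 (distance 0.831), Ttc27 (0.833), BC005537 (0.85), Emb (0.932) and Mknk1 (0.945). Those most like Lyz2 included Ncoa3 (0.562), Stk17b (0.573), Irf2bp2 (0.631) and Tcf4 (0.689). Lyz1 and Lyz2 were 2.93 apart, farther than any of these.

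Among 8 other genes of the lysozyme family, 6 had a peak. They held 14 C/EBPα peaks in control and 11 with IL-4. Of these, 4 were control-only, against 21.4% of all C/EBPα control peaks, and 1 was IL-4-only, against 22.0% of all. Of the 10 C/EBPα pairs, 3 were higher (17.7% of all pairs) and 3 were lower (17.8%), with a median ratio of 0.854. IRF8 had 14 and 15 peaks, with 3 control-only (21.4% of all) and 4 IL-4-only (30.4%). Of 11 IRF8 pairs, 1 was higher (23.6% of all) and 3 were lower (17.5%). JUNB had 0 peaks at these genes. Lyg2, of the goose-type family, had the highest C/EBPα scores among them, 43.5 in control and 73.17 with IL-4. Lyzl1 had the most peaks, with 10 and 6 of C/EBPα. The neighbour 9530003J23Rik, also listed by RefSeq as Lyzf1, whose start lies 43569 bp past that of Lyz2, had no peak in any list.

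Of 23 myeloid antibacterial genes, 20 had a peak. C/EBPα had 58 peaks in control and 65 with IL-4. Of these, 9 were control-only, against 21.4% of all C/EBPα control peaks, and 17 were IL-4-only, against 22.0% of all. Of 47 C/EBPα pairs, 9 were higher (17.7% of all pairs) and 10 lower (17.8%), with a median ratio of 0.956. IRF8 had 55 and 57 peaks, with 8 control-only (21.4% of all) and 8 IL-4-only (30.4%). Of 47 IRF8 pairs, 12 were higher (23.6% of all) and 7 lower (17.5%), with a median of 1.05. JUNB had 10 and 5 peaks, with 9 control-only (64.2% of all), 4 IL-4-only (39.2%) and 1 pair. Mpeg1, a pore-forming protein of macrophages, had the highest C/EBPα scores of the list, 174.1 and 203.74, still below those of Lyz1. S100a8, a subunit of calprotectin, had 91.61 and 70.41. Nos2, the inducible nitric oxide synthase, had 83.75 and 61.1. Cybb, the catalytic subunit of the phagocyte oxidase, had 54.8 and 40.1. Genes of neutrophil granules were split. Elane, Ngp and Lcn2 had no peak in any list. C/EBPα peaks were present in both conditions at Mpo (8.85 in control and 8.46 with IL-4), Prtn3 (18.66 and 19.31), Ctsg (4.26 and 9.1), Camp (32.69 and 16.63) and Ltf (highest scores 33.66 and 41.68). Among the other protein-coding genes with a start within 250000 bp of that of Lyz2, Cpsf6 had 17 peaks over the 6 lists, Cct2 and Yeats4 6 each, Frs2 4, and Lrrc10 none.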

How the data were processed

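The deposited data were 6 peak lists, each from 1 mouse BMDM sample. Per the study's methods and the submitters' processing notes, the authors aligned reads to mm10 with BWA 0.7.10, called peaks per sample with MACS2 2.0.10 at a q-value of at most 0.01, removed regions of the ENCODE blacklist and annotated peaks with HOMER 4.2. SAMtools 0.1.19 was also named. No unit is stated for the deposited score of a peak, so it was compared only within a factor and by rank. Start positions are uncertain by 1 bp. The control library and read depth were not given in the sources used here.

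Control and IL-4 peaks of a factor counted as shared from 1 bp of overlap on, and were paired by largest overlap. A pair was called higher or lower at a 1.5-fold ratio. With 1 sample per group no test was run and no interval can be given. Peaks were merged into regions, searched for motifs in 200 bp windows and aligned to the locus with 40000 bp either side by blastn 2.17.0 (E-value 1e-10). Sequences came from GRCm38 and RefSeq promoters. Overlaps were checked against bedtools 2.31.1 and motif searches tested on simulated data. Python 3.11.15, pandas 2.3.3, numpy 2.4.6, pysam 0.24.0, Biopython 1.88 and matplotlib 3.10.9 were used.

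The lysozyme genes, gene lists and motifs were chosen with earlier results of these data known. Named genes were Lyz1, Lyz2, protein-coding neighbours within 250000 bp, members of the gene lists and the 5 gene names nearest to Lyz2, to which the 5 nearest to Lyz1 were added afterwards. Some genes of this rule are not reported here. Symbols were matched through RefSeq synonyms. Alternatives changed overlap, score minimum, list length, gene assignment, distance, score scale, fold and motif window.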

Additional observations from a re-analysis of the deposited data

Results flagged for a closer look

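The -20.5 kb element of Lyz1 stood out because its paired scores moved past 1.5-fold in opposite directions. The ratio of IL-4 over control was 0.512 for C/EBPα and 1.69 for IRF8, each from 1 sample per condition, and the difference between the factors was not tested. The IRF8 scores behind it were low, 3.57 and 6.04. A fold limit of 2 ended both calls, and a minimum score of 10 removed both IRF8 peaks.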

How the results depend on the processing

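Of 120 alternative values for 37 results, 92 stayed near the value reported and 28 moved. At least 1 alternative moved 25 of the 37 results. Keeping peaks within 20000 bp of the TSS left 2 control-only C/EBPα peaks and 3 shared IRF8 peaks. Keeping scores of at least 10 left IRF8 with 0 control-only, 1 IL-4-only and 3 shared peaks and JUNB with 0 control-only and 0 shared peaks. The control-only IRF8 peak at +6.4 kb (3.57) fell below that minimum. The IL-4-only one was a different peak, at the last exon of Lyz1. Its control partner (9.8) fell just below the minimum, while the IL-4 score was 15.54. That minimum also left 3 C/EBPα peaks on IRF8 peaks and 3 IRF8 peaks on C/EBPα peaks in control, and 0 overlaps with JUNB in either condition. Lists of equal length left 0 control-only JUNB peaks. A looser fold limit, below 1.5, gave 2 higher C/EBPα pairs, 1 lower IRF8 pair and 2 lower JUNB pairs, and a fold of 2 gave 0 lower C/EBPα pairs and 0 higher IRF8 pairs. PU.1/ETS letters were in 4 peaks with a 100 bp window and in 17 over whole peaks, against 9. STAT6 letters were in 6 and those of the other STAT spacing in 8 over whole peaks, against 3 and 5. The looser C/EBP letters, added after seeing the data, were in 21 peaks, against 8. No paired analysis was possible because each group had 1 sample, and no sample could be left out in turn for the same reason. The unknown depth limits every count of peaks present or absent.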
